A study of Mus musculus with 22 samples.

Results

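The step from day 3 to day 6 of a culture that turns mouse primordial germ cells into embryonic germ cells was described from 2 of the 22 arrays of the series, the array of day 6 and that of day 3 with bFGF, 2i and A83-01. The arrays were found by their sample titles, and the step was chosen with earlier results of these data known. Both arrays lay on the same slide. The series followed germ cells from E11.5 embryos through days 1, 2, 3, 6 and 10 of culture to an embryonic germ cell line (EGC), beside an embryonic stem cell line (ESC), on 1-colour Agilent mouse arrays with 1 array a condition. The medium was not the same along this course. By the titles, day 1 had bFGF without inhibitors, and the day 2 array used for the course had bFGF, 2i and A83-01. The labels of day 10 name no compound. The other arrays held further day 2 cultures, a further ESC line and derivatives of it with forced expression of germ cell factors or GFP.

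The day 6 culture held cells sorted as SSEA-1 positive after 6 days, and the day 3 culture held cells sorted in the same way after 3 days. Both had been started from E11.5 primordial germ cells and grown with knockout serum replacement, LIF and bFGF, and per the labels the compounds were PD325901 at 1 µM, CHIR99021 at 3 µM and A83-01 at 250 nM. PD325901 inhibits the kinase MEK and CHIR99021 the kinase GSK3, which together are called 2i. A83-01 inhibits the type I receptors of activin, nodal and TGF-beta. Strain, sex, genotype and the number of embryos behind each culture were not given in the sources used here, and 4-hydroxytamoxifen, used in other cultures of the series to activate AKT, is not in the titles of these 2. The sources also do not say whether the 2 samples came from the same dissection. SSEA-1 is a sugar epitope carried by germ cells and by naive pluripotent cells, so the sort alone does not separate those cell states.

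Primordial germ cells are the embryonic precursors of eggs and sperm. They express Pou5f1, Nanog and Sox2, the transcription factors at the centre of pluripotency, but do not self-renew as stem cells until they are converted in culture to embryonic germ cells, which resemble embryonic stem cells. In mouse embryonic stem cells, MEK inhibition and GSK3 inhibition hold the naive network in place, and GSK3 inhibition does so by stabilising beta-catenin, the effector of Wnt signalling.

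A level below is the log2 spot intensity minus the log2 of that array's 75th percentile, so 0 is the brightness of that percentile, and a difference is the level at day 6 minus that at day 3. Levels compare the same probe between arrays and do not rank genes against each other. With 1 array a side no difference has a replicate check, and no p-value can be given. The precision that the 2 arrays do show is that of their spots: repeat spots of 155 probes had a median SD of 0.056 on the day 6 array and 0.059 on the day 3 array, and 8 probes of the spike-in controls differed by -0.05 on average and by -0.14 to 0.07. Different probes of the same gene scattered more, with an SD of 0.36 between their differences. The 75th percentile lay at an intensity of 782 on the day 6 array and 687 on the day 3 array. On those arrays 60.2% and 58.4% of the probes were well above background. The array of uncultured germ cells was dimmer, at 206 and 51.2%. No other array of the series lay on the slide of these 2 arrays, so all comparisons with other arrays run across slides. These include the low points of the course and the highest levels of all arrays named below. What part slide or array brightness had in them was not tested. Where a gene was well above background at only 1 of the 2 times, its difference is a bound, written "at least", against the lowest signal among probes well above background on the dim array or the dim probe's own level, whichever was higher.

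Of 17279 genes well above background at 1 or both times, 2121 (12.3%) were at least 2-fold higher at day 6 and 1263 (7.31%) at least 2-fold lower, so 19.6% were apart in either direction. The median difference over all genes was 0.06, and the middle of the distribution ran from -0.39 to 0.52 between its quartiles. The excess of higher genes grew with the size of the difference, with 639 genes at least 4-fold higher and 178 at least 4-fold lower, and 63 at least 16-fold higher and 5 at least 16-fold lower. Of the genes called, 658 of those higher and 254 of those lower were bounds. Among the 15430 genes measured at both times the shares were 9.48% higher and 6.54% lower. With 2 choices changed together, normexp background correction and quantile normalization over the arrays, 805 genes were at least 2-fold higher and 566 lower. In bulk samples fewer cells of a type and less RNA per cell cannot be told apart, here and in all that follows.

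**Figure D1:**
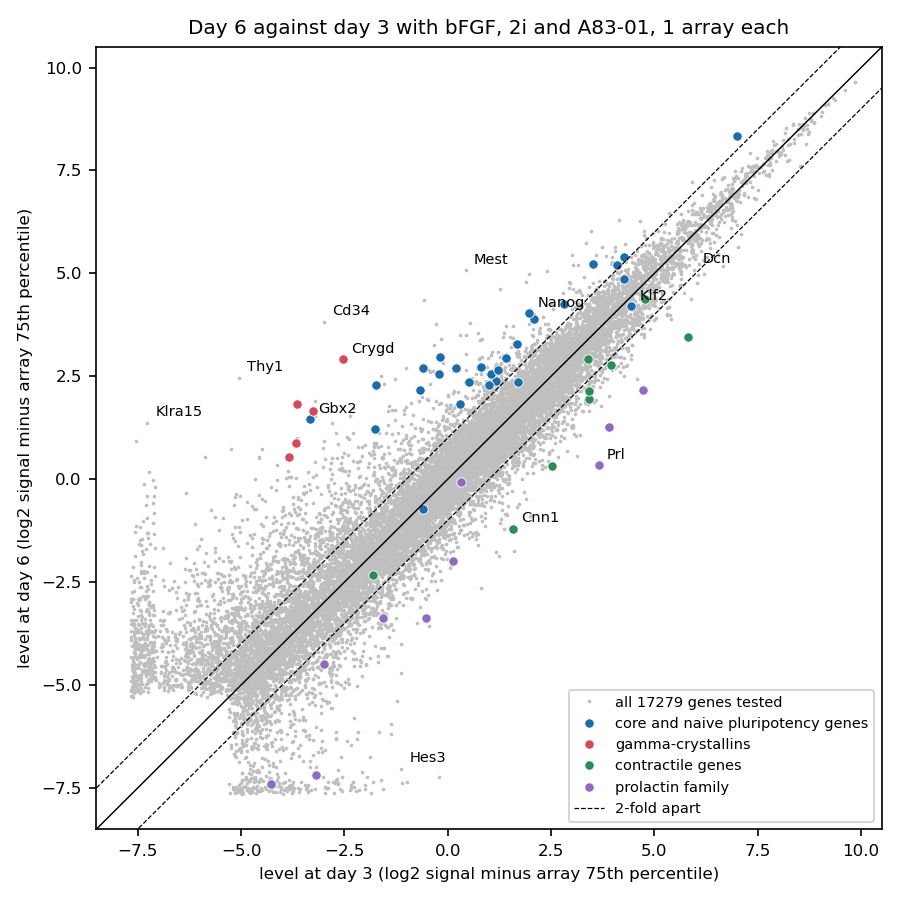
Each point is a gene, with its level at day 6 on the vertical axis and at day 3 on the horizontal axis, both in log2 intensity minus the array's 75th percentile, and dashed lines mark 2-fold. Core and naive pluripotency genes and gamma-crystallins lie above the diagonal, except Klf2 and Sox15, while contractile and prolactin-family genes lie below it.

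Core pluripotency factors and the naive network were higher at day 6 nearly throughout. All 4 core factors measured were more than 3-fold higher, with differences of 1.80 to 2.07 and a median of 1.89. Nanog, the homeodomain factor that holds the network together, stood at 4.04 at day 6, against 1.97 at day 3. Sall4, a zinc finger factor that works with Pou5f1, stood at 2.73 at day 6, against 0.80 at day 3. The core factors were thus already well above background at day 3, where their median level of 1.39 was the lowest of the course. The median ran 2.52, 2.13, 1.88, 1.39, 3.30 and 4.02 through uncultured germ cells and days 1, 2, 3, 6 and 10. It was 4.10 in the EGC line and 3.58 in the ESC line. The arrays other than those of days 3 and 6 lay on other slides.

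The stretch before the Nanog start site is shown because it holds, 75 bases upstream, the composite Oct-Sox element, to which the partners Pou5f1 and Sox2 bind in mouse cells. Its 250 bases upstream (RefSeq, GRCm38.p6, chr6:122707239-122707488, plus strand) have the element in capitals.
Nanog: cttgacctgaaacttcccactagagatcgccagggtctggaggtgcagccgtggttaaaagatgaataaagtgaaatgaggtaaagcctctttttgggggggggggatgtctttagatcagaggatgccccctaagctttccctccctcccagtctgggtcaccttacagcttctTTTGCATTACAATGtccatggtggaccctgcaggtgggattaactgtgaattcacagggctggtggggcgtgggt
The pattern searched for had the letters of the Nanog site itself, with 1 position left open. On both strands it was in 1 of 27025 promoters, each taken as 250 bases before to 50 after the start. That promoter was Nanog's, which such a pattern had to match. The count therefore does not show how rare Oct-Sox elements are among promoters. The search describes the letters of the window and says nothing of binding at either time.

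Of the 24 naive network genes tested, 20 were at least 2-fold higher and none lower, with a median of 1.52. The differences among them were far from equal. Gbx2, a homeodomain factor downstream of LIF, had the widest, with 1.45 at day 6 and -3.33 at day 3, a 27.6-fold difference. Lin28a, which blocks maturation of let-7 microRNAs, followed with 2.29 at day 6 and -1.73 at day 3. Jam2, a junctional adhesion molecule, Nr0b1, an orphan receptor that binds Pou5f1, Tcl1, a cofactor of AKT, and Eras, a Ras of embryonic stem cells, differed by 3.28, 3.16, 2.97 and 2.84. Esrrb and Tfcp2l1, targets of GSK3 inhibition in mouse stem cells, differed by less, 1.52 and 1.22.

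The other 4 naive genes were within 2-fold. The KLF factors Klf2, Klf4 and Klf5, which can replace each other in mouse stem cells, differed by -0.24, 0.60 and 0.65 and were bright at both times, at 4.21, 4.85 and 2.37 at day 6 and at 4.45, 4.26 and 1.71 at day 3. Sox15, the relative of Sox2, was level too, at -0.72 at day 6 and -0.60 at day 3. None of the 8 genes of the LIF pathway was 2-fold apart, with a median of 0.01: Socs3, the feedback inhibitor induced by STAT3, stood at 3.83 at day 6 and 3.61 at day 3, and Lifr, the receptor, at -2.23 at day 6 and -1.38 at day 3. None of the 7 FGF ligands and receptors tested was 2-fold apart either.

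Against the EGC line the naive genes were level or lower at day 6. Of the 24 naive genes, 12 were at least 2-fold lower at day 6 than in the EGC line and 12 within 2-fold, against a background of 13.7% of genes lower than in that line. Set against the ESC line, 2 were lower, 1 was higher and 21 were within 2-fold, where 11.9% of all genes were lower than in that line. The median level of the naive genes ran 1.81, 1.38, 1.04, 1.11, 2.67 and 3.86 along the course, so days 2 and 3 were its low end, and it was 4.01 in the EGC line and 3.31 in the ESC line.

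**Figure D2:**
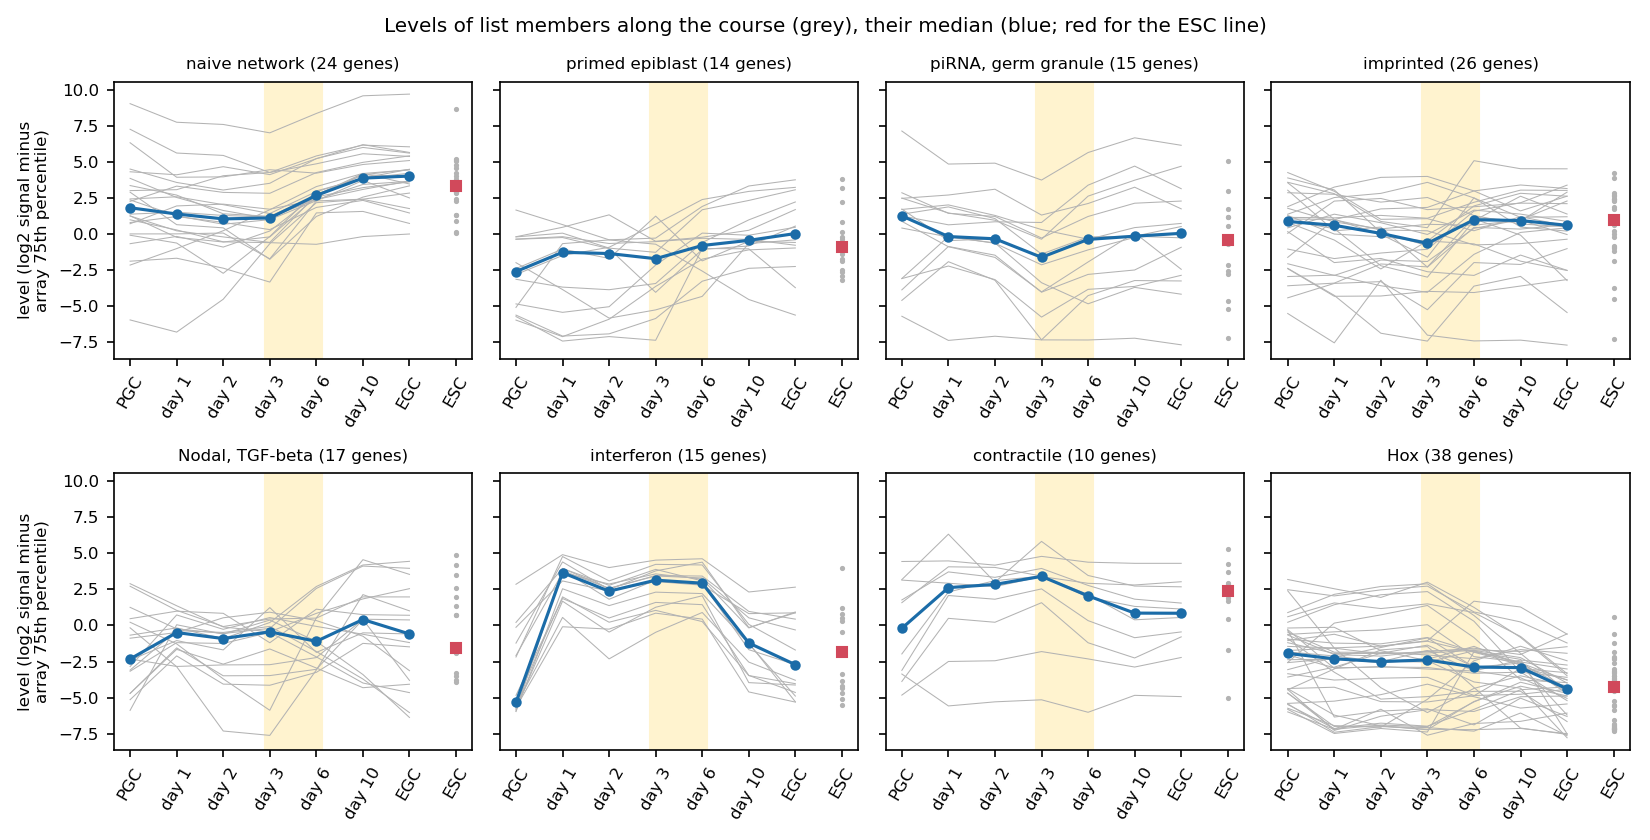
Each panel follows a gene list through uncultured germ cells (PGC), days 1, 2, 3, 6 and 10 and the EGC line, with the ESC line set apart; grey lines and dots are members, blue points (red for the ESC line) their median level in log2 intensity minus the array's 75th percentile, 1 array each. The shaded band is day 3 to day 6, over which the naive, primed, piRNA and imprinted medians go up, the contractile and Hox medians go down and the interferon median is 2.93 at day 6 and 3.13 at day 3.

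Genes of the primed epiblast, the state that follows naive pluripotency in the embryo, were also higher: 9 of 14 tested were at least 2-fold higher and 2 lower, with a median of 1.98. Pou3f1, the POU factor of the epiblast, stood at 1.67 at day 6, against -1.27 at day 3. Otx2, which moves cells from the naive to the primed state, stood at -0.59 at day 6, against -3.43 at day 3. Lef1, Foxd3 and Dnmt3b differed by 2.97, 2.21 and 1.70. The signature ligand of the primed state, Fgf5, was at the edge of detection: -4.33 at day 6 and not well above background at day 3, a difference of at least 0.94. The 2 members lower at day 6 were Fst, the activin antagonist follistatin, and Cdh2, the mesenchymal cadherin. Under normexp with quantile normalization the list's median was 1.14 and 7 members were at least 2-fold higher.

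Genes of the Nodal and TGF-beta pathway, whose receptors are the target of the A83-01 present at both times, showed no common direction. Of 17 tested, 6 were at least 2-fold higher, 5 lower, and the median was 0.44. Lefty1, a secreted inhibitor and target of Nodal, stood at 0.53 at day 6 and was not well above background at day 3 (-5.88), at least 58.4-fold apart. Nodal itself stood at 2.56 at day 6, against -0.21 at day 3, and its co-receptor Tdgf1 at 2.70 at day 6, against 0.20 at day 3. Lefty2, Tgfbi and Skil were the others that were higher. The members at least 2-fold lower were Fst, Tgfb2, Tgfb1, Inhba and Ltbp1. The ligand Tgfb1 stood at -2.18 at day 6, against -0.48 at day 3, Tgfb2 at -1.81 at day 6, against -0.07 at day 3, and Inhba, the activin subunit, at -1.10 at day 6, against 0.37 at day 3. Ltbp1, which stores TGF-beta in the matrix, was lower by 1.32 on the log2 scale, and Fst was lower too. Lefty1 had been measured in uncultured germ cells (0.22) and reached 4.55 at day 10, so day 3 was the low point of its course. The median of the list was 0.06 over members measured at both times alone.

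Of 15 Wnt targets tested, 9 were at least 2-fold higher and only Rnf43, an inhibitor of Wnt receptors, was at least 2-fold lower, but this count did not hold under other processing. Under normexp with quantile normalization 2 of the 15 were at least 2-fold higher and none lower, and over the 8 members measured at both times 4 were higher. Sp5, a direct beta-catenin target, stood at -0.47 at day 6, against -4.49 at day 3, and Lef1, the partner of beta-catenin, at -1.08 at day 6, against -4.05 at day 3. Axin2, Cdx1 and Cdx2 were well above background at day 6 alone, at -3.26, -3.43 and -2.71. By the labels CHIR99021 was in the medium at both times, and whether GSK3 was inhibited equally was not tested. The list's median was 1.55, against 0.34 under normexp with quantile normalization and 0.89 over members measured at both times.

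ERK targets, which report on the pathway that PD325901 blocks, showed no common direction, with 3 of 13 at least 2-fold higher, 3 lower and a median of 0.15. Etv1 stood at 0.58 at day 6, against -2.42 at day 3, and Etv5 and Spry4 differed by 1.42 and 1.36. Fosl1, an AP-1 subunit, stood at 0.47 at day 6, against 2.27 at day 3, and the early response gene Ier3 and the feedback inhibitor Spry1 differed by -1.50 and -1.38. Of 12 BMP targets, 4 were at least 2-fold higher (Msx2, Gata2, Bambi and Msx1) and none lower, and 2 under normexp with quantile normalization. Their median was 0.39.

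Of 13 germ cell genes tested, 4 were at least 2-fold higher and none at least 2-fold lower, with a median of 0.38, and under normexp with quantile normalization 2 were higher. Their summed relative intensity was 114 at day 6 and 125 at day 3. Tfap2c, a factor needed for germ cell specification, stood at 2.91 at day 6, against 1.40 at day 3, and Alpl, the alkaline phosphatase that marks germ cells and stem cells alike, at 2.94 at day 6, against 0.98 at day 3. Nanos3, a translational repressor needed for germ cell survival, differed by 1.67 but was dim, at -1.84 at day 6 and -3.52 at day 3. Prdm1, the repressor that starts germ cell fate, did not differ, at -3.76 at day 6 and -3.69 at day 3, both far under its -0.03 in uncultured germ cells. Dppa3 differed by 0.88 and Ifitm3 by -0.20. The receptor Cxcr4 was at -4.96 at day 6 and not well above background at day 3.

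The piRNA and germ granule genes, which silence transposons in the germ line, were at least 2-fold higher in 11 of 14 tested, with a median of 1.24, and in 4 of 14 under normexp with quantile normalization. Mael stood at 2.62 at day 6, against -0.37 at day 3, and Gtsf1, a cofactor of PIWI proteins, at 3.38 at day 6, against 0.79 at day 3. Asz1, Tex19.1, Tdrd12, Pld6, Mov10l1, Ddx4 and Piwil2 differed by 2.07, 1.91, 1.49, 1.24, 1.23, 1.19 and 1.03, and Tdrd9 and Tdrd1 by at least 1.50 and 1.07. Tdrd5 was the only member at least 2-fold lower, and it was dim, at -4.84 at day 6 and -3.38 at day 3.

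Of 19 meiosis genes tested, 14 were at least 2-fold higher and none lower, with a median of 1.49, and 8 were higher under normexp with quantile normalization. Taf7l, an X-linked paralog of a TFIID subunit, stood at -0.02 at day 6, against -4.12 at day 3. Meioc, which stabilises meiotic transcripts, stood at -0.59 at day 6, against -3.74 at day 3. Stra8, the retinoic acid target that gates meiosis, was bright at both times, at 5.73 at day 6 and 3.33 at day 3. Syce1, of the synaptonemal complex, differed by 2.73, Sohlh2, a helix-loop-helix factor of the germ line, by 2.00 and Hormad1, an axis protein, by 1.64. In uncultured germ cells Stra8 and Taf7l were not well above background, so the bright Stra8 levels were not those of the cells the culture started from. For Taf7l this cannot be said of day 3. The array of uncultured germ cells was dimmer, and Magea6 was not well above background there at -3.53. A Taf7l level of -4.12 could thus have been missed. Under normexp with quantile normalization the medians were 0.81 for the piRNA genes and 0.67 for the meiosis genes.

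The E-box CACGTG, a site for helix-loop-helix factors of the Myc and Max family, was looked for in their promoters, on both strands of the same windows. It was in 6 of 15 piRNA gene promoters (40.0%) and 6 of 18 meiosis gene promoters (33.3%), against 7.23% of all promoters, 9.94% of those of genes tested, 10.3% of those at least 2-fold higher and 7.40% of those at least 2-fold lower. The 100 bases upstream of the start are given for 6 of these genes, chosen after their letters were seen for an E-box in that stretch, with the E-box in capitals. Mouse RefSeq GRCm38.p6 gives Ddx4 on the minus strand at chr13:112652311-112652410, Tdrd1 on the plus strand at chr19:56826109-56826208 and Pld6 on the minus strand at chr11:59787658-59787757. It gives Sycp3 on the plus strand at chr10:88459487-88459586, Hormad1 on the plus strand at chr3:95559577-95559676 and Taf7l on the minus strand at chrX:134476491-134476590.
Ddx4: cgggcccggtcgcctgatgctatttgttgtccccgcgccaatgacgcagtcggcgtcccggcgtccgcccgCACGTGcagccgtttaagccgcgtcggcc
Tdrd1: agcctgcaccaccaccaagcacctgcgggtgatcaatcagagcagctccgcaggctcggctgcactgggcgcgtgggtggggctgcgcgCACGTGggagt
Pld6: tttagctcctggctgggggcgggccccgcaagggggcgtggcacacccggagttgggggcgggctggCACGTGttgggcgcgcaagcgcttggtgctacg
Sycp3: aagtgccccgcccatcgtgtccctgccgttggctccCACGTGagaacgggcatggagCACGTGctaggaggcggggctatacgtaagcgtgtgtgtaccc
Hormad1: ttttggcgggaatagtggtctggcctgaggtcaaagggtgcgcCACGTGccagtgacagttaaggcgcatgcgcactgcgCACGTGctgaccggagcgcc
Taf7l: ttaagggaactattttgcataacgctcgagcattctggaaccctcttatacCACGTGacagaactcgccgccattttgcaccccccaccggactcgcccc
Sycp3 and Hormad1 each hold 2 E-boxes in the stretch. Sycp3, of the synaptonemal complex, stood at -1.08 at day 6, against -2.33 at day 3. The other motifs searched were the octamer ATGCAAAT, ATCAAAG (TCF), CCCCACCC (KLF), AAGGTCA (ESRRB) and GGCGGGAA (E2F), found in 1.87%, 3.14%, 16.1%, 4.49% and 3.07% of promoters of genes at least 2-fold higher and in 2.06%, 2.55%, 14.6%, 3.52% and 2.67% of promoters of genes at least 2-fold lower. Those shares lie near each other, and the windows hold nothing of distal enhancers.

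DNA methylation genes were at least 2-fold higher in 6 of 11, none lower, with a median of 1.04, and in 3 of 11 under normexp with quantile normalization. Dnmt3l, the cofactor of the de novo methyltransferases, stood at 4.80 at day 6, against 1.90 at day 3, and at -3.62 at day 2. Dnmt3b and Dnmt3a, the de novo enzymes, differed by 1.70 and 1.63, while the maintenance enzyme Dnmt1 stood at 0.14 at day 6 and 0.16 at day 3. Of the TET dioxygenases, which oxidise methylcytosine, Tet2 and Tet1 differed by 1.94 and 1.04 and Tet3 by -0.09. Zfp57, which protects imprints, differed by 1.58, and its corepressor Trim28 by 0.99.

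Imprinted genes, which are expressed from a single parental allele, held several of the widest differences. Of 25 tested, 15 were at least 2-fold higher and 3 lower, with a median of 1.69. Mest, a paternally expressed hydrolase gene on chromosome 6, stood at 5.07 at day 6, its highest of the 22 arrays, against 0.43 at day 3. H19, the maternally expressed long RNA on chromosome 7, stood at 2.50 at day 6, against -1.61 at day 3. Its paternally expressed neighbour Igf2 stood at 1.05 at day 6, against -0.81 at day 3, so both partners of that locus were higher. The Dlk1 to Meg3 cluster on chromosome 12 behaved alike: Dlk1, expressed from the paternal allele, stood at 0.92 at day 6, against -2.99 at day 3, and Meg3, from the maternal allele, at 1.13 at day 6, against -2.28 at day 3. Rian and Mirg, the other maternal long RNAs of that cluster, differed by 2.64 and 2.29. Igf2, Rian and Mirg were picked after their values were seen.

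Phlda2, a maternally expressed growth restrictor, differed by 2.75, and Peg10, a gene derived from a retrotransposon, by at least 3.27. The 3 lower members were Grb10 and Gnas, signalling genes, and Sgce, the neighbour of Peg10, at 2.98 at day 6 and 3.98 at day 3. These are levels of total RNA from both alleles, and they do not show which allele was read. The median of the list was 1.13 under normexp with quantile normalization and 1.14 over members measured at both times.

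**Figure D3:**
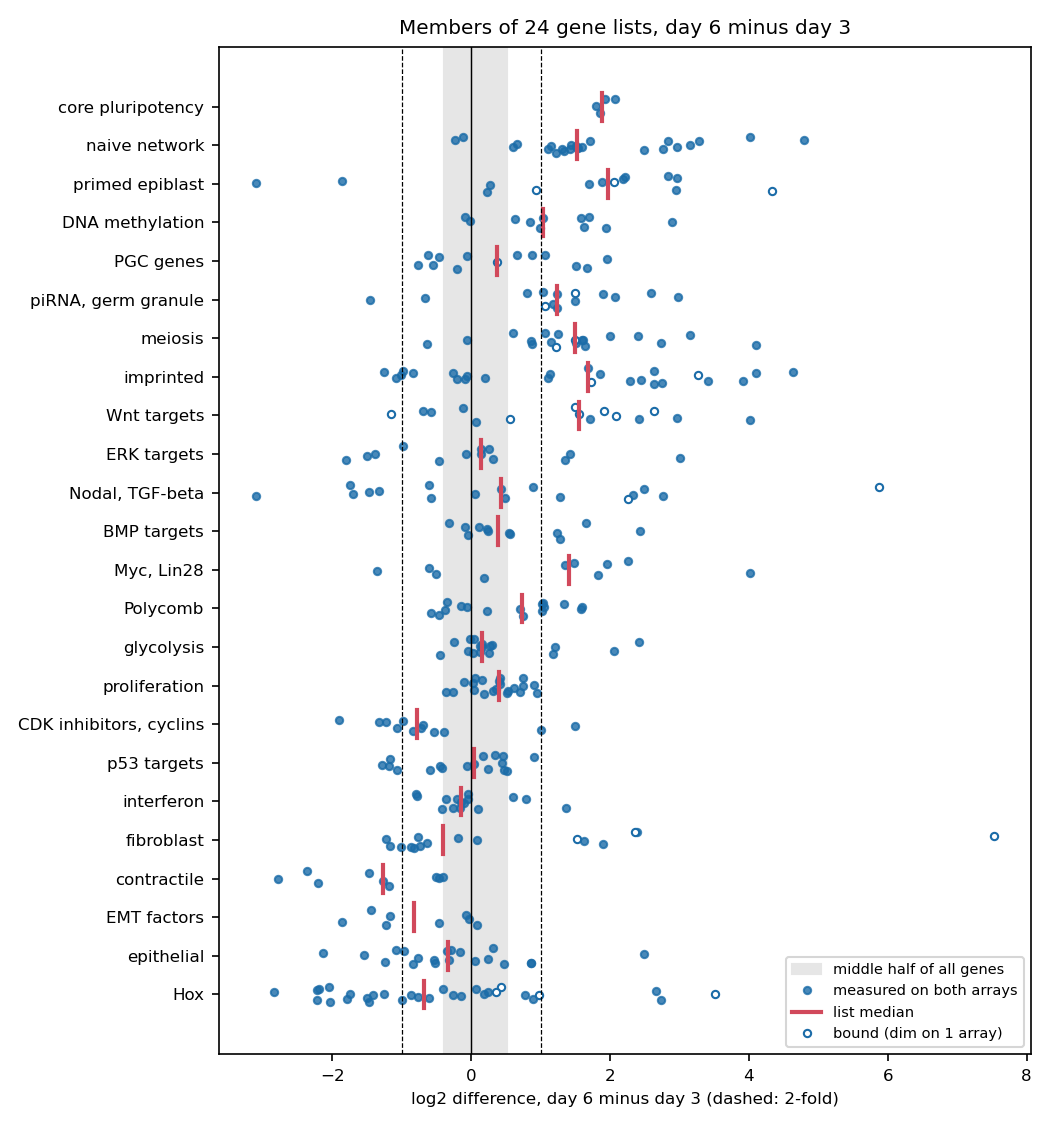
Each row is a gene list and each point a member, placed by its log2 difference, day 6 minus day 3; open points are bounds, red ticks list medians, dashed lines 2-fold, and the grey band spans the quartiles of all 17279 genes. Core, naive, primed and imprinted members lie mostly right of the 2-fold line, contractile genes left of 0, and interferon and proliferation genes near 0.

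Several families of related genes moved as blocks. They were picked after their values were seen, and since members share sequence, a probe may catch RNA of its relatives, so their number is no measure of independent genes. The gamma-crystallins, structural proteins of the eye lens, gave the clearest case. All 5 tested were higher at day 6, by 4.36 to 5.47, and 2 more on the array were not well above background at either time. Crygd stood at 2.91 at day 6, against -2.54 at day 3. Crygc stood at 1.82 at day 6, against -3.65 at day 3, and its second probe differed by 6.44. Cryga stood at 1.66 at day 6, against -3.27 at day 3. The family did not fall back later: Crygd was at 2.71 at day 10, 3.19 in the EGC line and -0.995 in the ESC line, and the 5 members lay between 1.35 and 3.19 in the EGC line and between -2.28 and -0.56 in the ESC line.

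The crystallin promoters are printed because 4 of them share an 18-base stretch around a TATA-like run. The 100 bases before each start, with the shared stretches in capitals, come from mouse chromosome 1 (RefSeq, GRCm38.p6). Cryga lies at chr1:65103364-65103463, Crygc at chr1:65073533-65073632, Crygd at chr1:65063441-65063540 and Cryge at chr1:65051164-65051263, all on the minus strand, and Crygf at chr1:65926422-65926521 on the plus strand.
Cryga: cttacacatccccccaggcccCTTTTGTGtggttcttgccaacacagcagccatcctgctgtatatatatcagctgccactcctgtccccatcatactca
Crygc: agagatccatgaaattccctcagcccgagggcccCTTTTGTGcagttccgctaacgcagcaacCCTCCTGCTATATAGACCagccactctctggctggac
Crygd: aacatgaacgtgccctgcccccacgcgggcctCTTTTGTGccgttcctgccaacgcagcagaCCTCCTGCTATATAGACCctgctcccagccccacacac
Cryge: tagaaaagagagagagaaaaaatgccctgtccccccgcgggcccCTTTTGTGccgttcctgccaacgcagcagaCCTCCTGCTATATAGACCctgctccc
Crygf: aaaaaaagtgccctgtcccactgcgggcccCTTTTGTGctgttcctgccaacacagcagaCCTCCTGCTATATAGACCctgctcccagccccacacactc
The stretch CCTCCTGCTATATAGACC was in 4 of the 27025 promoters, those of Crygc, Crygd, Cryge and Crygf, 26 to 40 bases before the start. CTTTTGTG, 56 to 79 bases before the start of all 5, was in 1.34% of all promoters.

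The Klra genes, receptors of natural killer cells clustered on chromosome 6, differed from the crystallins in their later course. Of 18 on the array, 9 were tested, and the rest were not well above background at either time. Among the 9 tested, 6 were at least 2-fold higher at day 6 and 1 lower, all as bounds. Each of the 9 was well above background at only 1 time, which fixed the direction of its difference. Klra15 stood at 1.38 at day 6 and was not well above background at day 3 (-7.26), at least 105-fold apart. Klra7 and Klra1 stood at 0.94 and 0.18 at day 6 and were not well above background at day 3. Day 6 was the highest of the 22 arrays for all 3, and they were dimmer at day 10 (-1.31, -2.12 and -1.75) and in the EGC line (-1.72, -2.19 and -2.88). Klra17 and Klra2 were well above background at day 3 only, with bounds of -2.64 and -0.30 on their differences.

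**Figure D4:**
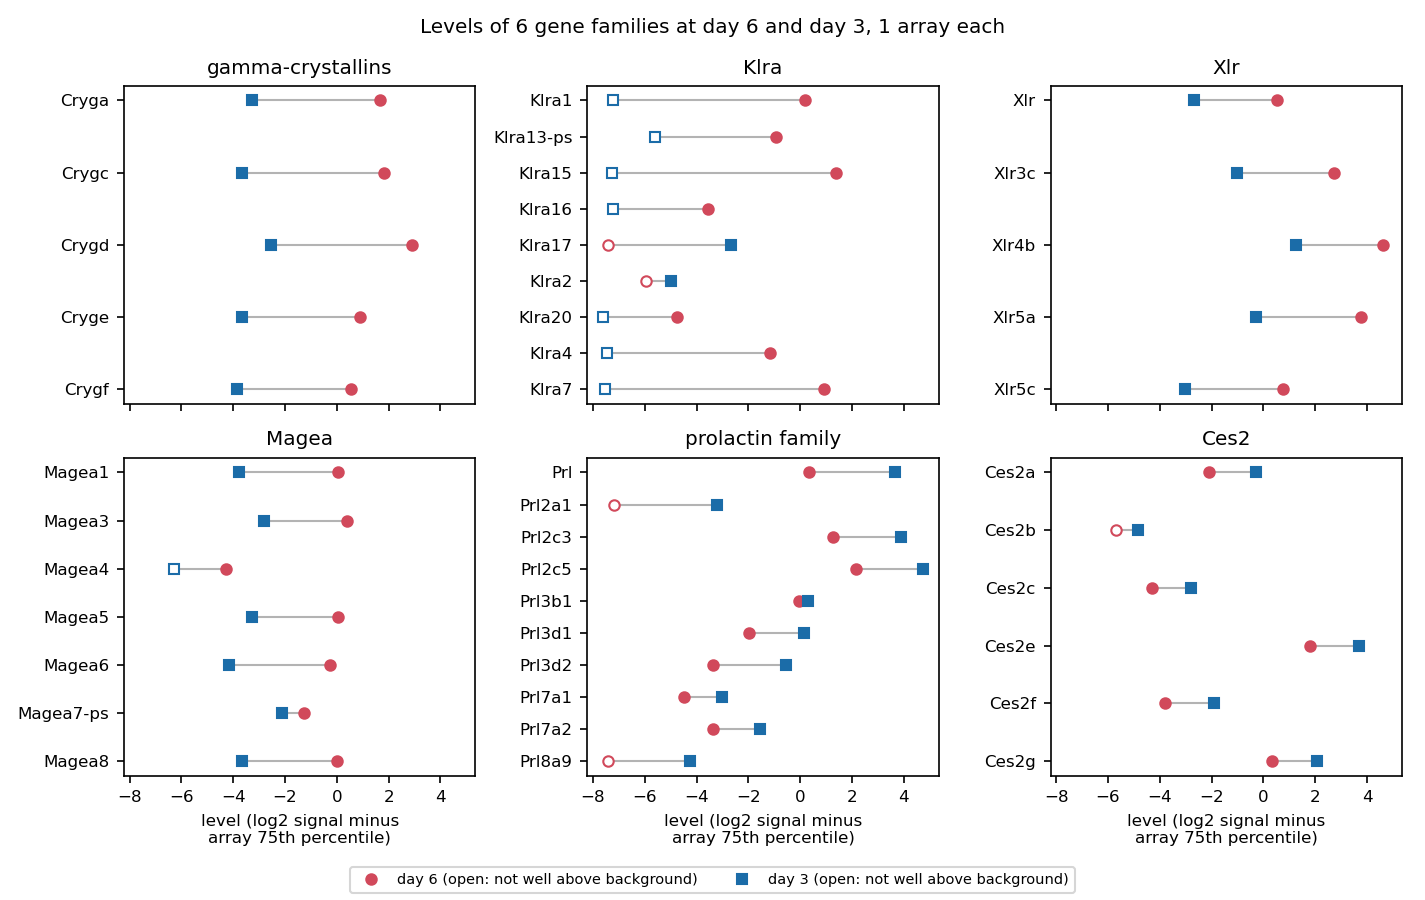
Levels of the tested members of 6 gene families at day 6 (red circles) and day 3 (blue squares), in log2 intensity minus the array's 75th percentile, 1 array each; open symbols were not well above background. Every crystallin and Xlr pair runs to a higher day 6 level, and every prolactin-family and Ces2 pair to a lower one.

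Germ cell families of the X chromosome were higher. All 5 Xlr genes tested, relatives of the synaptonemal complex protein Sycp3, differed by 3.19 to 4.06: Xlr5a stood at 3.77 at day 6, against -0.29 at day 3, and Xlr4b at 4.61 at day 6, against 1.27 at day 3. Of 7 Magea genes, cancer-testis genes, 6 were at least 2-fold higher. Magea3 stood at 0.39 at day 6, against -2.83 at day 3, and was -0.80 in the EGC line and not well above background in the ESC line. Of 7 Rhox homeobox genes, 4 were at least 2-fold higher, with Rhox13 at 3.40 at day 6, against -0.17 at day 3. Rhox6 and Rhox9, which were at 6.90 and 7.15 in uncultured germ cells, differed by -0.63 and -0.77. The Bex genes, small adaptor proteins, and the Armcx genes, armadillo-repeat proteins, both X-linked, were at least 2-fold higher in 3 of 4 and 4 of 5, and under normexp with quantile normalization in 3 of 4 and 2 of 5.

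The X chromosome as a whole stood apart from the autosomes. Of 635 X-linked genes tested, 163 (25.7%) were at least 2-fold higher at day 6, against 11.7% of 16282 autosomal genes, and 5.67% were lower, against 7.43%. The share of higher genes on single autosomes ran from 7.65% (chromosome 8) to 16.5% (chromosome 14). The median difference was 0.36 for X-linked genes and 0.05 for autosomal genes. Leaving out Xlr, Magea, Mageb, Rhox, Armcx and Bex genes and genes with Gm-number names, 132 of 572 X-linked genes (23.1%) were higher. The shares among genes measured at both times were 20.5% on the X and 9.10% on the autosomes. Among genes with a mean level of at least 2 they were 10.5% of 133 X-linked genes and 3.58% of 3744 autosomal genes. Under normexp with quantile normalization they were 13.5% and 4.32%.

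Of 5 sex-linked genes that report on the mix of male and female cells, none was 2-fold apart. All 5 were lower at day 6, with a median of -0.24. Among 9 genes tested on the Y chromosome, 2 (22.2%) were at least 2-fold lower and none higher, with a median of -0.25. Xist, the RNA that coats the inactive X, stood at -3.16 at day 6 and -2.91 at day 3. The Y-linked genes Eif2s3y and Ddx3y stood at 0.27 and -1.12 at day 6 and at 0.64 and -0.64 at day 3. The number of embryos and their sexes were not given in the sources used here, and what part the mix had in the X chromosome's shift was not tested.

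**Figure D5:**
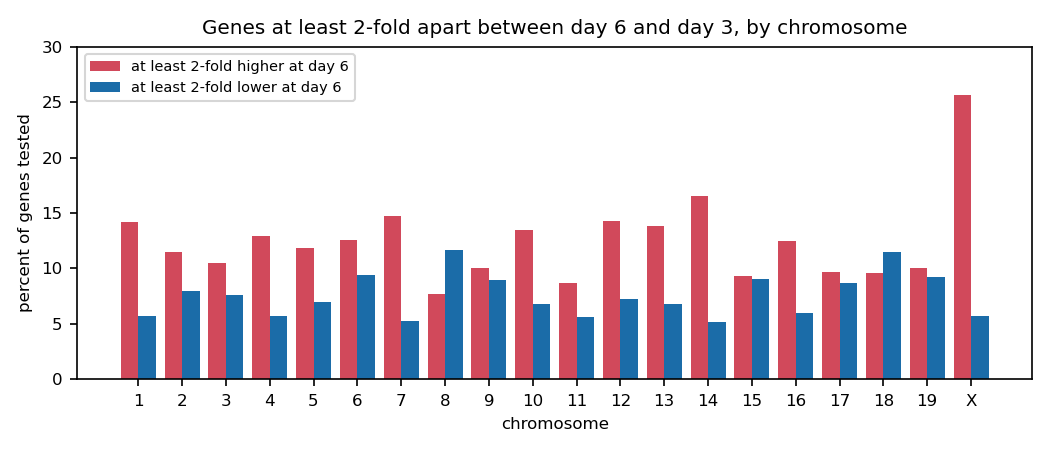
Bars give the percent of tested genes on each chromosome that were at least 2-fold higher (red) or lower (blue) at day 6 than at day 3, 1 array each. The X chromosome has the tallest red bar, at 25.7%, with the autosomes between 7.65% and 16.5%.

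Cd34 and Thy1, each with its highest level of the 22 arrays at day 6, had the widest differences of the genes named, as a measured value and as a bound. Cd34, a sialomucin of blood progenitors, vessels and mesenchyme, stood at 3.83 at day 6, against -2.997 at day 3, a 114-fold difference. Thy1, a surface glycoprotein of T cells, fibroblasts and spermatogonia, stood at 2.47 at day 6 and was not well above background at day 3 (-5.06), at least 185-fold apart. Both were still well above their day 3 levels later: Cd34 was at 1.79 at day 10 and 0.97 in the EGC line, and Thy1 at 1.33 at day 10 and 1.27 in the EGC line. The 2 differed by 5.64 and 4.78 under normexp with quantile normalization.

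Calca, the calcitonin gene, stood at 0.74 at day 6 and was not well above background at day 3, and it was brighter still in the EGC line, at 4.15. Myo1f, an unconventional myosin, stood at 0.74 at day 6, against -4.49 at day 3. Cidea, a lipid droplet protein, stood at 0.54 at day 6, against -4.57 at day 3. These 3 all had levels near or above day 6 in the EGC line, where Myo1f and Cidea were at 2.38 and 0.32. Pla2g1b, a secreted phospholipase, Rspo1, a Wnt agonist, and Slc13a4, a sulfate transporter, differed by 5.09, 4.66 and 4.47. Slc13a4 was another gene with its highest of the 22 arrays at day 6 (0.35), against -1.28 in the EGC line.

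The genes that were lower at day 6 had a different make-up. Prl, the hormone prolactin, stood at 0.35 at day 6, against 3.65 at day 3. Of 10 genes of its family tested, most of them placental hormones on chromosome 13, 9 were at least 2-fold lower and none higher, with a median of -2.12. Prl2c5 stood at 2.16 at day 6, against 4.74 at day 3, and Prl2c3 at 1.27 at day 6, against 3.90 at day 3. Prl3d2 was lower by 2.83 on the log2 scale. Of the family, 5 members were at least 2-fold lower under normexp with quantile normalization. Of 6 Ces2 carboxylesterases on chromosome 8, 5 were at least 2-fold lower, and 3 under normexp with quantile normalization, with Ces2e at 1.79 at day 6, against 3.70 at day 3. Prl and Ces2e were not well above background in uncultured germ cells or in the EGC line.

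Gria4, a glutamate receptor subunit, and Synpr, a synaptic vesicle protein, stood at -4.70 and -2.65 at day 6, against -1.13 and 0.80 at day 3. Igfbp5, a binding protein of insulin-like growth factors, stood at -1.74 at day 6, against 1.60 at day 3. Fst stood at -1.87 at day 6, against 1.23 at day 3. Several genes known from heart and muscle were among those named, and no list was made for them. Nkx2-5, the cardiac homeodomain factor, stood at -4.01 at day 6, against -1.14 at day 3, and Acta1, skeletal actin, at -0.88 at day 6, against 1.98 at day 3. Hand2, a helix-loop-helix factor of heart and limb, and Lrrc10, a cardiac protein, were well above background at day 3 alone, at -1.23 and -1.66, as was Hes3, a Notch-family repressor, at -1.13. Rbp2, a retinol-binding protein, and Spaar, a small regulatory polypeptide, were also well above background at day 3 alone, at -1.37 and -1.89. Day 3 was the highest of the 22 arrays for Nkx2-5, Acta1, Hand2, Lrrc10 and Hes3, as it was for 4.88% of all genes tested, while 1.71% had their highest level at day 6. Cib2, Ppef1 and Dach2 were lower by 3.12, 2.92 and 2.84 on the log2 scale.

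Hox genes, which record position along the body axis, were lower more often than higher. Of 30 tested, 12 were at least 2-fold lower, 3 higher, and the median was -0.68, with 8 lower and 2 higher under normexp with quantile normalization. In paralog groups 6 to 13, a split made after the values were seen, 11 of 17 were lower and 1 higher, with a median of -1.50. In paralog groups 1 to 5, 1 of 13 was lower and 2 were higher, with a median of 0.07. Hoxb9 stood at 0.69 at day 6, against 2.88 at day 3, Hoxa9 at -2.16 at day 6, against 0.05 at day 3, and Hoxc9 at -0.84 at day 6, against 1.38 at day 3. Hoxc8, among the 12 largest falls, stood at -4.30 at day 6, against -1.46 at day 3. At the other end of the clusters, Hoxb1 stood at -1.83 at day 6 and was not well above background at day 3. Hoxd13 was the exception among the posterior genes, at -2.45 at day 6 and -5.12 at day 3. Hoxb9 went on down the course, to -1.93 at day 10 and -4.58 in the EGC line, from 0.89 in uncultured germ cells.

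Mesenchymal transcripts were present at both times. Of 16 fibroblast markers, all were well above background at day 6 and 13 at day 3. Their summed relative intensity was 157 at day 6 and 163 at day 3, against 8.31 in uncultured germ cells and 15.2 in the EGC line. Dcn, the matrix proteoglycan decorin, stood at 5.09 at day 6, against 5.96 at day 3, and at 0.06 in uncultured germ cells. Col1a2, a chain of collagen I, stood at 4.18 at day 6, against 5.35 at day 3. Day 6 was at least 2-fold above the EGC line for 11 of the 16, where 11.1% of all genes were. Members of the list went both ways, with 6 at least 2-fold higher (Thy1, Pdgfra, Lum, Lox, S100a4 and Mfap5) and Twist1, Col1a2 and Fbn1 lower, and a median of -0.41. By normexp with quantile normalization, 3 were higher and 2 lower. Both samples had been sorted on SSEA-1, and the part of fibroblast-like cells in the differences was not tested.

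Contractile genes had a common direction. Of 9 tested, 6 were at least 2-fold lower and none higher, with a median of -1.26, and their summed relative intensity was 56.4 at day 6 and 140 at day 3. Tagln, the actin-binding transgelin, stood at 3.46 at day 6, against 5.82 at day 3. Cnn1, calponin of smooth muscle, stood at -1.20 at day 6, against 1.57 at day 3. Cald1, Myl9, Tpm2 and Tpm1 were lower by 2.20, 1.47, 1.26 and 1.18 on the log2 scale, and other probes of Tpm1 differed by as much as 0.40 the other way.

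Of 8 factors of the epithelial to mesenchymal transition, 4 were at least 2-fold lower (Cdh2, Snai2, Twist1 and Zeb2) and none higher. Snai2 stood at 0.38 at day 6, against 1.83 at day 3. Epithelial genes showed few differences upward: of 20 tested, only Grhl2, a factor of epithelial fate, was at least 2-fold higher, at 0.69 at day 6 and -1.81 at day 3, and Cldn6, Crb3, Krt8 and Krt19 were lower. Cdh1, E-cadherin, named here after its value was seen, stood at 0.46 at day 6 and 0.15 at day 3.

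Markers of other tissues gave small counts. Over all genes 12.3% were at least 2-fold higher and 7.31% lower, and counts such as 2 or 1 of 12 lie near those shares. Of 16 extraembryonic endoderm genes, 3 were at least 2-fold higher and 5 lower, among them Gata6, at 0.75 at day 6 and 1.89 at day 3, and the basement membrane collagens Col4a1 and Col4a2. Of 12 genes of the gonadal soma, 2 were at least 2-fold higher and 1 lower (Lhx9), with a median of -0.17. Wt1, the Wilms tumour factor, stood at -0.43 at day 6 and was not well above background at day 3, and Upk3b, a mesothelial gene, stood at 0.44 at day 6, against -2.12 at day 3. Neural genes were lower in 4 of 9, with Nes, an intermediate filament of progenitors, at -0.28 at day 6 and 1.56 at day 3. Zic1 was well above background at day 6 alone. Of 6 mesendoderm genes only Foxa2 was higher and only Kdr lower, and 9 trophectoderm genes likewise gave 1 higher (Cdx2) and 1 lower (Plac1). Blood and endothelial genes were mixed, with 3 of 8 and 3 of 6 at least 2-fold higher and 3 of 8 and 1 of 6 lower. Under normexp with quantile normalization, 805 of all 17279 genes were at least 2-fold higher and 566 lower. The blood and endothelial lists each had 1 higher and 1 lower there. In that setting the mesendoderm and trophectoderm lists each had 0 higher and 1 lower, and the gonadal list 2 higher and 0 lower. The extraembryonic endoderm list had 0 higher and 5 lower, and the neural list 1 higher and 2 lower.

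Of 12 CDK inhibitors and G1 cyclins, 4 inhibitors were at least 2-fold lower and 2 cyclins at least 2-fold higher. Cdkn2a, which encodes p16 and p19ARF, stood at 0.16 at day 6, against 2.06 at day 3, and its neighbour Cdkn2b at 2.45 at day 6, against 3.77 at day 3. Cdkn2c and Cdkn1a differed by -1.23 and -1.06. Ccne1, cyclin E1, stood at 5.53 at day 6, against 4.04 at day 3, and Ccnd3 differed by 1.01. None of 21 proliferation genes was 2-fold apart, and their median was 0.40, against 0.06 over all genes, with 18 of the 21 above 0. Of 17 p53 targets, none was at least 2-fold higher and 4 were lower (Plk2, Pmaip1, Fas and Cdkn1a), with a median of 0.04.

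In the Myc and Lin28 list, Myc stood at 1.09 at day 6, against 2.45 at day 3, and Mycn at 2.73 at day 6, against 0.90 at day 3. Mycl differed by 1.48. Lin28b, the paralog of Lin28a, stood at -0.75 at day 6, against -3.002 at day 3, and the mRNA-binding proteins Igf2bp1 and Igf2bp3 differed by 1.96 and 1.36. In all, 6 of 10 members were at least 2-fold higher and only Myc lower. The list's median was 1.42, and 0.89 under normexp with quantile normalization.

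Metabolic genes were mostly level, with glucose uptake as the exception. Slc2a3 and Slc2a1, the glucose transporters GLUT3 and GLUT1, stood at 5.44 and 5.21 at day 6, against 3.01 and 3.16 at day 3. Hk2, a hexokinase, and Pdk1, which keeps pyruvate from the mitochondrion, differed by 1.19 and 1.21. None of the other 13 glycolysis genes tested was 2-fold apart, and neither was any of 17 respiratory chain genes or 22 sterol and lipid synthesis genes, with medians of 0.19 in both of those lists. Of 12 ribosome biogenesis genes, only Gar1 was at least 2-fold higher. Of 7 aquaporins, 3 were at least 2-fold higher and 1 lower, and under normexp with quantile normalization 1 higher and 1 lower. Aqp3, a channel for water and glycerol, stood at 5.44 at day 6, against 3.59 at day 3.

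Of 16 polycomb genes, 7 were at least 2-fold higher and none lower: Cbx7 stood at 2.01 at day 6, against 0.41 at day 3, and Jarid2 at 1.48 at day 6, against -0.10 at day 3, and Phc1, Pcgf6, Rnf2, Eed and Mtf2 differed by 1.02 to 1.34. A second probe of Eed differed by -0.51. Ezh2, the methyltransferase, stood at 2.16 at day 6 and 1.93 at day 3. None of 12 NuRD genes was 2-fold apart, with a median of 0.16.

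Interferon-stimulated genes were bright and unmoved. Of 15 tested, only Ifi44 was at least 2-fold higher and none lower, with a median of -0.14. Isg15, a ubiquitin-like protein, stood at 4.19 at day 6, against 4.23 at day 3, and Cxcl10, a chemokine, at 4.38 at day 6, against 3.78 at day 3. All 15 were at least 2-fold above the EGC line at day 6, where 11.1% of all genes were. Their median level ran -5.33, 3.65, 2.37, 3.13, 2.93 and -1.22 through uncultured germ cells and days 1, 2, 3, 6 and 10. Of 14 immediate early genes only Egr2 was at least 2-fold higher and none lower, and of 11 heat shock genes Hspa1a and Hsph1 were higher, by 1.90 and 1.23.

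Of the enzymes that build the SSEA-1 sugar, by which the cells of both times were sorted, Fut4, a fucosyltransferase that can make the epitope, stood at -0.72 at day 6, against -3.57 at day 3. Fut9, the other enzyme that can, stood at -4.24 at day 6 and -4.09 at day 3. B3galt5, which builds a different chain, was dim and lower, at -5.07 at day 6 and -3.996 at day 3. Of the genes of the 2-cell state, Zscan4c and Tcstv1 were well above background at day 6 alone, at -2.51 and -3.25, and neither was 2-fold apart under normexp with quantile normalization.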

How the data were processed

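RNA of SSEA-1-sorted cells was hybridised to 1-colour Agilent arrays. Per the file headers, the authors processed each scan with Agilent Feature Extraction 10.7.3.1, on a design annotated on mm9, and the deposited scans give an intensity for each spot after background subtraction and spatial detrending, with nothing done to match arrays. A second deposited table holds the authors' intensities for all samples: 95.4% of its values lay within 0.01 log2 of the scanner's. It was used only as an alternative.

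Control spots and spots marked as outliers were dropped, and repeats of a probe were averaged. Levels are log2 intensities less the 75th percentile of their array, also in log2. Of 41174 probes, 26949 were named by RefSeq accession, 5082 by symbol, 798 by synonym and 40 by description, and 8305 kept the file's name. Each of 28082 genes was read from its brightest probe, on average over all 22 arrays. Genes that the scanner software called well above background on 1 or both of the 2 arrays were counted as at least 2-fold apart or not. Signal over background, 1 array a side and the spread between probes limit the precision. Python 3.11.15, pandas 2.3.3, R 4.3.3 and limma 3.58.1 were used, and the counting was tested on simulated data.

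Named were the 12 largest rises and 12 largest falls measured on both arrays, the 6 brightest genes seen at only 1 time in each direction, the members of the pluripotency, germ cell, piRNA and DNA methylation lists, and up to 6 members of each other list with the largest difference. The 43 lists, of 606 genes, and the choice of arrays were made with earlier results of these data known. Gene families, the X chromosome, the Hox split, genes so marked, and list members named beyond this rule (such as Tgfb1, Skil, Ezh2, Mtf2, Sycp3, Dcn and Isg15) were chosen after their values were seen. Promoters came from RefSeq, GRCm38.p6. The 7 alternatives are other scalings (median of bright probes, spike-in spots), normexp background correction with an offset of 50 and quantile normalization, the value table, no filter on dim probes, genes bright on both arrays, and the mean of a gene's probes. Prdm14, Fgf4, Sox3 and Piwil4 were not analysed here.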

Additional observations from a re-analysis of the deposited data

How the results depend on the processing

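No paired analysis was possible because each time had 1 array, and for the same reason no replicate could be left out. Of 3384 genes at least 2-fold apart, 1325 (normexp with quantile normalization) to 3384 (no filter on dim probes) were so in the same direction under the 7 alternatives, and 8 had the opposite sign, all with the mean of a gene's probes. Dropping the filter cannot shrink a called difference, and genes bright on both arrays keep their values. Both of these settings therefore keep their calls by construction. The median over all genes ran from 0 to 0.11, and the share of higher genes among those called from 58.7% to 66.5%. Normexp with quantile normalization gave 805 genes higher and 566 lower, and no filter on dim probes gave 1983 lower among 28045. Of 218 list members at least 2-fold apart, 151 were so with normexp, and under no alternative did any change sign. Of 301 list medians recomputed, 275 moved by less than 0.36, the SD between probes. Part of that count was fixed beforehand. The scalings by bright probes and by spike-in spots shift all differences by nearly 1 constant, far below 0.36. The value table holds nearly the same intensities. With normexp the medians were 1.14 (primed epiblast), 0.81 (piRNA), 0.67 (meiosis), 0.34 (Wnt targets), 1.13 (imprinted), 0.47 (2-cell), 0.15 (endothelial) and 0.89 (Myc and Lin28). With no filter they were 2.07 (Wnt targets), 0.0124 (2-cell), -0.0397 (blood), 0.27 (endothelial), -0.25 (Hox) and 0.0328 (aquaporins). Over genes bright on both arrays, and with the mean of their probes, they were -1.05 in both (neural), 0.89 and 1.14 (Wnt targets), 0.0604 in both (Nodal and TGF-beta), 1.14 in both (imprinted), 0.62 in both (2-cell) and 0.35 in both (endothelial). The offset of normexp pulls dim genes together by construction, and the other two settings leave out the bounds. For the genes named as largest rises, largest falls or brightest bounds alone, 184 of 228 values moved by less than 0.36 and none changed sign. These genes were picked for wide differences, so a change of sign was unlikely from the start. X-linked genes were higher more often than autosomal genes in every setting tried, with 13.5% to 26.6% of them and 4.32% to 12.4% of autosomal genes; this comparison was added after the data were seen. Single bright spots limit the bounds: a gene seen at 1 time by 1 probe has no second measurement.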

Other observations

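Some genes had their highest level of the 22 arrays at 1 of the 2 times and were not well above background at the other, each seen by 1 probe. Serpina9, Defb35 and Stpg2 stood at -0.11, -0.01 and -0.95 at day 6 and were not well above background at day 3. Vmn1r208, a vomeronasal receptor, and Klra17 stood at -2.14 and -2.67 at day 3 and were not well above background at day 6. Such values rest on a few spots, and whether they are RNA of these genes was not tested. Over all tested genes, 295 (1.71%) had their highest level of the 22 arrays at day 6 and 843 (4.88%) at day 3. The share was thus larger at day 3 than at day 6. Shares of the other arrays were not counted, so neither can be called unusual for the series.

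Other gene families were apart as well. Of 5 Nlrp genes tested, 3 were at least 2-fold higher at day 6, with Nlrp4c at 0.20 at day 6, against -2.47 at day 3, and Nlrp2 was lower, by 1.02 on the log2 scale. Of 10 Pramel genes 6 were at least 2-fold higher and none lower, with Pramel7 at 0.65 at day 6, against -1.90 at day 3, and 3 of the 10 were higher under normexp with quantile normalization. Of 5 Ugt2b glucuronosyltransferases, 4 were lower, all of them not well above background at day 6, and none was 2-fold apart with normexp and quantile normalization. These families too were picked after their values were seen.

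The promoters of genes at least 2-fold higher held fewer CpG dinucleotides than those of all genes tested, with a median observed over expected ratio of 0.53 against 0.74, and those at least 2-fold lower lay between, at 0.60. The median over all promoters was 0.39.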
